A study of Homo sapiens with 12 samples.

Results

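Nutrient depletion was compared with nutrient-rich medium in vehicle-treated Caco-2 cells, which derive from a human colorectal adenocarcinoma and can differentiate towards enterocytes. The comparison used 6 of the 12 RNA-seq libraries of the series, those labelled vehicle, with 3 from each medium. The 18047 genes that passed a filter on low counts, of 54553 counted, were tested. All cells were labelled wild type and the treated cells were described as sub-confluent. Rich medium was Eagle's minimum essential medium with 1 g/L glucose, 2 mM glutamine and 20% fetal bovine serum. Depleted medium was a glucose- and glutamine-free DMEM given 0.1 g/L glucose, 0.2 mM glutamine and 1% serum for 48 h. Pyruvate (1 mM), penicillin, streptomycin and non-essential amino acids (0.1 mM) were in both media. Glucose, glutamine, serum and the base medium differed together, so their parts in any difference cannot be told apart. The labels do not name the vehicle. Nor do they say whether replicates were grown separately, so the p-values describe the spread among these libraries, which could be technical.

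Cells that lose glucose, glutamine and serum growth factors are known to adjust through several sensors. Uncharged tRNA activates the kinase GCN2, which phosphorylates eIF2α and favours translation of ATF4, the transcription factor at the centre of the integrated stress response. The kinase complex mTORC1 joins amino acid and growth factor signals to ribosome production, the receptor-to-ERK cascade carries serum signals to the nucleus, and FOXO factors become active when insulin signalling fades. Differentiated enterocytes, the cell type that Caco-2 resembles, absorb nutrients through a brush border and leave the cell cycle.

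Depletion moved about equal numbers of genes in both directions. At an adjusted p under 0.05 (edgeR quasi-likelihood test, Benjamini-Hochberg adjustment), 2802 genes were higher in depleted medium (15.5% of those tested) and 2775 were lower (15.4%), which makes 30.9% in either direction. The CPM (reads per 1e+06, scaled between libraries) of the 3 libraries of each medium did not overlap in 7444 genes (41.2%). The genes that rose included 195 changed at least 8-fold, and those that fell included 51. Of the genes that rose, 630 had a mean under 1 CPM in rich medium. Long non-coding RNAs were called higher in 278 of 2046 cases (13.6%) and lower in 59 (2.88%), while protein-coding genes were higher in 16.8% and lower in 19%. The median log2 fold change over all tested genes was 0.04. A minimum fold of 1.5 in the test left 1019 genes higher and 871 lower, and leaving out depleted replicate 1 left 1832 lower.

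**Figure D1:**
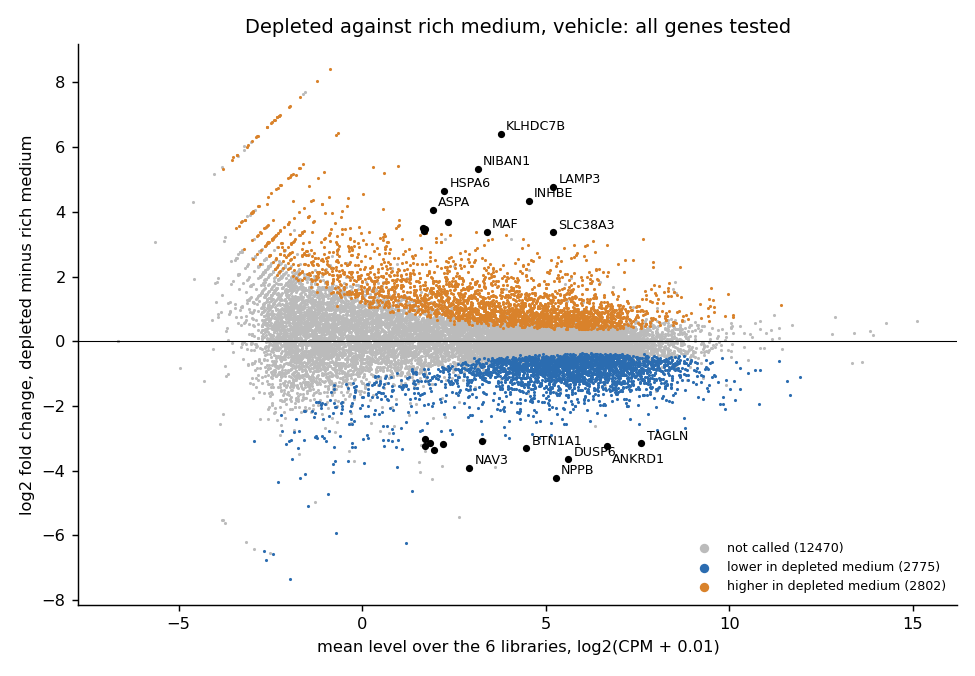
Log2 fold change (depleted minus rich medium) of each of the 18047 tested genes against its mean level over the 6 libraries, as log2(CPM + 0.01). Orange points are the 2802 genes called higher, blue points the 2775 called lower, and black points the 24 genes named for the largest changes, of which 14 carry their symbol.

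The 6 libraries were not equally deep. Rich replicate 1 held 12969814 reads assigned to genes, and the other 5 held 36152188 to 46166464. The shallow library showed 17485 genes with a read, against 22749 to 24222 in the others. It differed in more than depth. Ribosomal RNA took 1.35% of its reads, against 4.51% to 8.70% in the other 5, and its 20 most abundant genes 9.31%, against 16.3% to 19.6%. Effective gene lengths, as deposited, fell short of the full lengths by a median of 246 bases, against 181 to 187. The first principal component (58.3% of the variance) separated the media, and the second (20.2%) set rich replicate 1 apart. Small RNAs took 9.22% of the reads of rich replicate 3, against 2.38% and 2.69% in rich replicates 1 and 2. The depleted libraries lay at 6.51%, 6.43% and 8.29%, so rich replicates 1 and 2 were the lowest of the 6. Rich replicate 2 was high in mitochondrial transcripts (3.37%, against 1.46% and 0.987% in rich replicates 1 and 3). Markers of the labelled line were present except for 1: EPCAM stood at 343 to 751 CPM, VIL1 at 259 to 314, and CDH17 had 4770 to 17269 reads a library. KRT20, from the same marker set, was nearly absent, with 0 to 16 reads a library.

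Promoter sequences are shown first for 6 genes, because letters known from the literature as binding motifs recur in the promoters of the gene groups described below. The search covered both strands from 250 bases before to 50 bases after each RefSeq transcript start (GRCh38.p14), and each sequence printed is the 250 bases before the start, 5′ to 3′ on the gene's strand, with the match in capitals. CHAC1 (chr15:40953221-40953470, plus strand) and CEBPG (chr19:33373863-33374112, plus strand) hold TGATGNAA, the core of the C/EBP-ATF response element, in which N is any base. They were chosen as 2 of the 5 integrated stress response genes with the match.
CHAC1: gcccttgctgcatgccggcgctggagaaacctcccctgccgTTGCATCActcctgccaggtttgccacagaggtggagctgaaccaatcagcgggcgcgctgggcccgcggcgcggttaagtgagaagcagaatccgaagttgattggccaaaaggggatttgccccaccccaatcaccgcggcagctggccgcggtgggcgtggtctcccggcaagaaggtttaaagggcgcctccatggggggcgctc
CEBPG: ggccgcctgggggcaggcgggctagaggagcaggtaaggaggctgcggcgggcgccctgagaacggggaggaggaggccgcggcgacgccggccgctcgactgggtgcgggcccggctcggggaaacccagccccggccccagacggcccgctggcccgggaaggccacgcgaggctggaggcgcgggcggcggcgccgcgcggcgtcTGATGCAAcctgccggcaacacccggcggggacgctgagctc
HSPA6 (chr1:161524290-161524539, plus strand) and HSP90AA1 (chr14:102087045-102087294, minus strand) hold a heat shock element, here GAA, TTC and GAA with 2 bases between neighbours, and were called in opposite directions.
HSPA6: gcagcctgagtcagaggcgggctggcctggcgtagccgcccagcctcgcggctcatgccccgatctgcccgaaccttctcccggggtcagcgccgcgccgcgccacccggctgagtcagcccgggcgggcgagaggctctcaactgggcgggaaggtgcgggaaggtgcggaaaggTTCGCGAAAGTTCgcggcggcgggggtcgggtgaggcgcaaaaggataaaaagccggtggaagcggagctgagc
HSP90AA1: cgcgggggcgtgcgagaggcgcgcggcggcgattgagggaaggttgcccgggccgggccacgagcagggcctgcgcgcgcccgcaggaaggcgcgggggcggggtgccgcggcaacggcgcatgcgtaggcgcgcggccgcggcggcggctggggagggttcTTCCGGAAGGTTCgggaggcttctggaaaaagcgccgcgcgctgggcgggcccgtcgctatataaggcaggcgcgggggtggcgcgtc
MCM6 (chr2:135876444-135876693, minus strand) holds TTTNNCGC, an E2F site, at 4 overlapping places, and NCAPG (chr4:17810729-17810978, plus strand) holds TTTGAA, the cell cycle genes homology region. They stand for the replication and mitosis genes.
MCM6: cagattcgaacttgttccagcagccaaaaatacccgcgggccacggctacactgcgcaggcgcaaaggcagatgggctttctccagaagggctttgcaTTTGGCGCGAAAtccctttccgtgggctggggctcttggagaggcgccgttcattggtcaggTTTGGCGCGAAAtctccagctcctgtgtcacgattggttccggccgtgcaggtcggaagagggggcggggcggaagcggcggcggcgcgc
NCAPG: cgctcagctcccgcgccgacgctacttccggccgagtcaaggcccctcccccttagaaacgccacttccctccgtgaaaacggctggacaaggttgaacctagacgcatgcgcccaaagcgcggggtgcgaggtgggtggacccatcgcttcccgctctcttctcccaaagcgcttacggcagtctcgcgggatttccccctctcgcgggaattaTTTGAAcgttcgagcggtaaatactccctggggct

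The E2F letters were in the promoters of 12 of 17 origin licensing genes with a RefSeq promoter (70.6%), against 12.3% of the 12548 tested genes with one and 6.89% of all 35116 promoters. TTTGAA was in 27 of 38 mitosis promoters (71.1%), against 14.1% of tested genes and 15.2% of all promoters. CACGTG, the E-box bound by MYC among other factors, was in 19 of 37 ribosome biogenesis promoters (51.4%), against 12% and 7.26%. The heat shock element was in 6 of 18 cytosolic chaperone promoters (33.3%), against 0.47% and 0.49%, and the C/EBP-ATF letters in 5 of 21 integrated stress response promoters (23.8%), against 2.96% and 3.62%. TCACNCCAC, a sterol regulatory element, was in 1 of 19 cholesterol promoters (5.26%), against 1.47% and 1.13%. A match describes letters in a window and is not evidence of binding.

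Glucose uptake and glycolysis transcripts fell. Of 24 genes on that list 17 were lower and none was higher, with a median log2 fold change of -0.95. LDHA, lactate dehydrogenase A (chromosome 11, 18394563 to 18408425), stood at 814, 666 and 838 CPM in rich replicates 1, 2 and 3, and at 118, 118 and 125 CPM in depleted replicates. All depleted libraries lay far below all rich ones (log2 fold change -2.68, SE 0.29, edgeR adjusted p = 3e-05). SLC2A1, the glucose transporter GLUT1, measured 1077, 2021 and 1471 CPM in rich medium and 271, 479 and 317 CPM in depleted medium. Replicate 2 was the highest in each medium and the groups did not overlap (log2 fold change -2.10, SE 0.31). SLC2A3, or GLUT3, was at 4315 to 6685 CPM in rich and 1819 to 3773 CPM in depleted medium (log2 fold change -1.09, adjusted p = 0.018 by edgeR). Its call was lost without rich replicate 2 or depleted replicate 1 or 3 (adjusted p 0.051, 0.094 and 0.073).

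The committing enzyme PFKP went from 297 to 498 CPM down to 90.9 to 112 CPM (log2 fold change -2.04). GAPDH, often used as a reference transcript, showed a log2 fold change of -0.60 with an adjusted p = 0.045 by edgeR, which lay between 0.052 and 0.14 without any 1 library of the 6 except rich replicate 2. TXNIP, an arrestin that limits glucose uptake and whose gene is switched on by glucose, stood at 22.2, 37.6 and 25.3 CPM in rich medium and 3.03, 4.10 and 3.71 CPM in depleted medium. The groups were well apart (log2 fold change -2.98), as they were for its relative ARRDC4 (-2.68). The glucose-sensing factors MLXIPL and MLXIP were higher (1.71 and 0.72). In the pentose phosphate pathway 5 of 10 genes were lower, among them RPIA (-1.19).

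Fasting genes rose in part. Of 21 tested genes of fatty acid oxidation and fasting 6 were higher and none was lower, and their median log2 fold change was -0.15. Without rich replicate 2, 4 were lower, and a fit blocked on replicate number gave 3. PPARA, the nuclear receptor of the fasting liver and gut, rose from 21.7, 14.1 and 16.8 CPM to 73.6, 54.8 and 78.9 CPM, with no overlap (log2 fold change 1.99, SE 0.20). CREB3L3 and PDK2, a kinase that shuts off pyruvate dehydrogenase, were higher at 1.24 and 1.17.

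Genes of the integrated stress response rose as a group: 20 of 23 were higher, none was lower, and the median log2 fold change was 1.36. INHBE, an activin subunit (chromosome 12, 57455307 to 57458025), stood at 2.46, 1.94 and 2.23 CPM in rich medium and 39.6, 46.7 and 46.0 CPM in depleted medium. The 3 libraries of each medium lay close together and the media lay far apart (log2 fold change 4.34, SE 0.51, edgeR adjusted p = 9.1e-05). NIBAN1 had 0, 29 and 11 reads in the rich libraries and 623, 578 and 854 in the depleted ones (log2 fold change 5.34, or 6.38 without rich replicate 2). NUPR1, a stress-induced chromatin protein, was at 1.19, 0.265 and 0.419 CPM against 5.08, 3.66 and 8.46 CPM. Its rich replicate 1 was the highest of that group, and without it the log2 fold change went from 3.41 to 4.05.

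ATF4 itself overlapped between the media, at 451, 282 and 546 CPM in rich and 614, 541 and 782 CPM in depleted medium. Its log2 fold change of 0.60 did not pass (adjusted p = 0.062 by edgeR). It passed in the fit blocked on replicate number (0.62, adjusted p = 0.0064) and without rich replicate 3 (0.83, adjusted p = 0.019). It also passed by the DESeq2 test (adjusted p = 0.040), without the low-count filter (0.031) and in the series-wide count table (0.044). CHAC1, which breaks down glutathione, rose from 7.52, 13.5 and 15.3 CPM to 28.1, 31.2 and 33.4 CPM (log2 fold change 1.33). CEBPG, a partner of ATF4, rose from 93.8, 59.1 and 91.0 CPM to 152, 130 and 170 CPM (0.89). In both genes every depleted library lay above every rich one. Of the other genes with the C/EBP-ATF letters ATF3 was at 0.56 (adjusted p = 0.017) and JDP2 at 0.34 (adjusted p = 0.085, edgeR), and FGF21 had 0 reads in the rich libraries against 20, 12 and 15 in the depleted ones. CHAC1, CEBPG, ATF3, JDP2 and FGF21 were taken for their promoters after their values were seen.

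**Figure D2:**
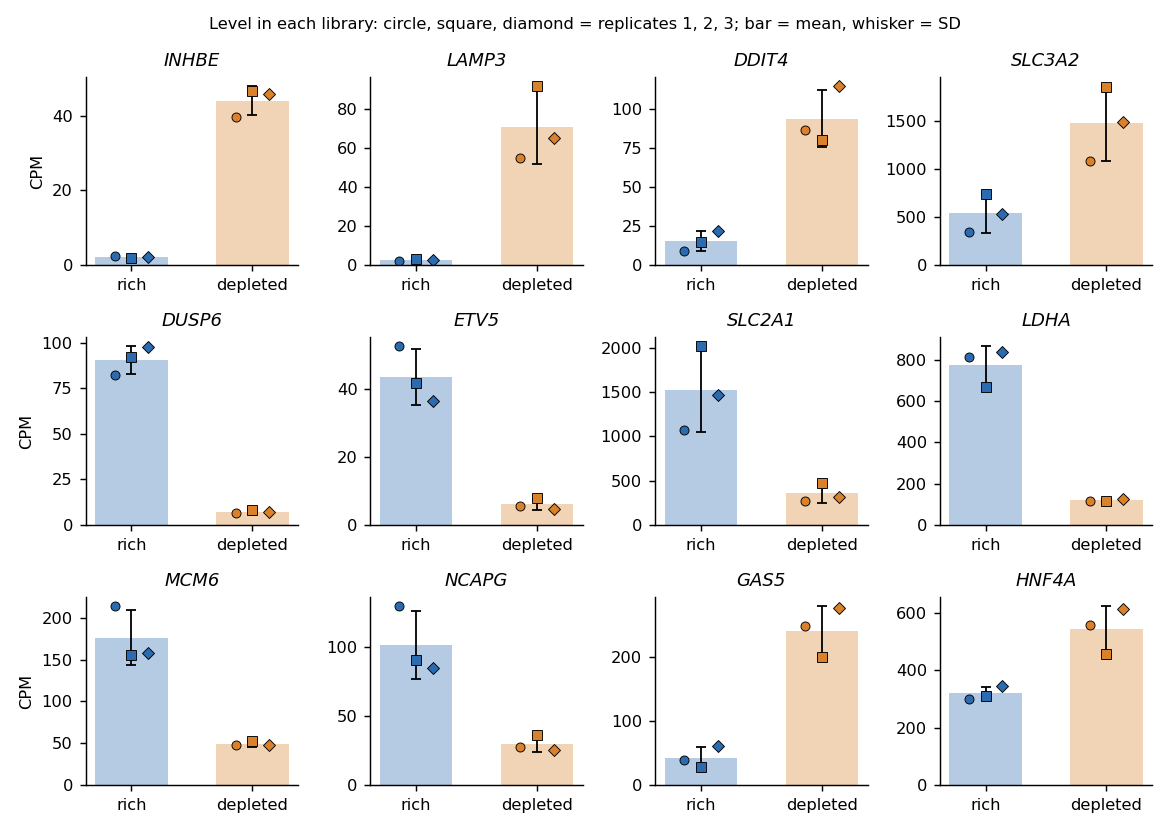
CPM of 12 genes in each vehicle library, with bars at the mean of 3 libraries and whisker lengths of 1 SD. INHBE, LAMP3, DDIT4, SLC3A2, GAS5 and HNF4A are higher in depleted medium and DUSP6, ETV5, SLC2A1, LDHA, MCM6 and NCAPG lower, and in none of the 12 do the groups overlap.

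Among 18 genes of serine, one-carbon, asparagine and proline synthesis 7 were higher and 3 lower. SHMT2, a mitochondrial enzyme of folate metabolism, rose from 146, 195 and 200 CPM to 403, 394 and 437 CPM, and ALDH1L2, also mitochondrial, from 37.9, 32.3 and 22.6 to 128, 104 and 120 CPM. Their log2 fold changes were 1.19 (SE 0.18) and 1.93 (SE 0.23). The cytosolic enzymes SHMT1 and MTHFD1 were lower, SHMT1 at -0.74 and MTHFD1 falling from 211, 212 and 178 CPM to 73.7, 79.6 and 72.2 CPM (-1.41, SE 0.19). In none of these genes did the media overlap. SFXN1, which carries serine into mitochondria, was lower at -0.96, and CTH, which makes cysteine, higher at 1.16.

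Among 25 amino acid transporter genes 10 were higher and 4 lower (7 lower with the replicate number as a block). SLC3A2, the heavy chain shared by several amino acid exchangers, rose from 342, 742 and 527 CPM to 1082, 1859 and 1489 CPM (log2 fold change 1.46, SE 0.36). SLC7A5, the light chain that forms the leucine exchanger LAT1 with it, fell from 931, 1922 and 1157 CPM to 470, 738 and 553 CPM (-1.19, SE 0.25). In both genes replicate 2 was the highest of each medium and the groups did not overlap. SLC7A8, the light chain of a related exchanger, was lower at -2.55. The glycine transporter SLC6A9 and the leucine carrier SLC43A1 were higher (2.43 and 1.61). SLC38A3, a glutamine transporter, rose from 5.36, 9.13 and 4.87 CPM to 74.6, 62.6 and 64.6 CPM (3.37, SE 0.38).

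Glutamine and aspartate enzymes gave 7 higher and 4 lower of 17, with 2 lower when depleted replicate 1 was left out. ASS1, which builds arginine precursors from aspartate, was at 15.8, 16.1 and 36.4 CPM in rich and 174, 138 and 228 CPM in depleted medium. Rich replicate 3 was the highest of its group and still lay far below all depleted libraries (log2 fold change 2.98). ASPA, which releases aspartate from N-acetylaspartate, rose from 0.298, 0.292 and 0.629 CPM to 8.51, 4.33 and 8.57 CPM (4.06, SE 0.62). GLUL, glutamine synthetase, was at 0.45 with an adjusted p = 0.068 by edgeR, and at 0.45 with an adjusted p = 0.032 when replicate number was a block. Cytosolic aminoacyl-tRNA synthetases were split, with 5 of 20 higher (WARS1 1.00, SARS1 0.85, AARS1 0.81) and 7 lower (FARSB -1.30, VARS1 -1.28). Without depleted replicate 3, 3 were higher. Of the 17 mitochondrial synthetases 9 were lower.

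On the list of mTORC1 inhibitors and Rag-folliculin sensors 11 of 23 genes were higher and none was lower. DDIT4, which acts through the TSC complex, went from 9.0, 14.8 and 21.7 CPM to 86.9, 80.3 and 115 CPM (log2 fold change 2.61, SE 0.26). SESN3 and SESN2, sestrins that sense stress and leucine, were higher at 2.24 and 1.96. Among 40 autophagy genes 15 were higher and 1, VMP1, was lower (-0.88). The initiating kinase ULK1 rose from 29.8, 43.3 and 31.8 CPM to 147, 119 and 135 CPM (1.93, SE 0.17). ULK2 and the phagophore protein WIPI1 were close to it at 1.70 and 1.69, and the groups of all 3 genes stayed apart.

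Genes tied to FOXO activity and quiescence were higher in 14 of 21 cases, with a median log2 fold change of 1.10. YPEL2 rose from 0.893, 1.72 and 1.70 CPM to 19.1, 11.6 and 16.1 CPM (3.37, SE 0.27), and YPEL3 was at 2.15. IRS2, the insulin receptor substrate that FOXO factors induce, was at 15.0, 18.7 and 13.5 CPM in rich and 49.5, 45.2 and 51.8 CPM in depleted medium (1.63). The insulin receptor INSR followed at 1.10. The wider insulin and IGF axis did not rise as a group. Of its 16 tested genes 2 were higher and 5 lower, with a median log2 fold change of -0.44. The lower count was 3 without depleted replicate 1 or 2. BMF, a BH3-only protein that promotes apoptosis, rose from 54.5, 55.5 and 43.5 CPM to 269, 197 and 218 CPM (2.16, SE 0.18), and the related HRK was at 0 to 0.106 CPM in rich and 2.23 to 3.30 CPM in depleted medium. The inhibitor of apoptosis BIRC7 was higher too, at 0 to 0.419 CPM in rich and 2.60 to 4.11 CPM in depleted medium. Of 21 apoptosis regulators 5 were higher and 3 lower, and the lower count was 1 to 5 as libraries were left out.

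Genes that report or restrain ERK activity fell. Of 23 such genes 18 were lower and 1 higher, with a median log2 fold change of -1.32. DUSP6, the phosphatase that ERK induces as its own brake (chromosome 12, 89347235 to 89352501), went from 82.4, 91.9 and 97.4 CPM to 6.46, 8.04 and 7.25 CPM. Replicates agreed closely in both media (log2 fold change -3.64, SE 0.24, edgeR adjusted p = 1.3e-06). The ETS factor ETV5 fell from 52.5, 41.6 and 36.4 CPM to 5.41, 7.96 and 4.62 CPM (-2.86, SE 0.29). IER3 and EGR1, early response genes, were lower at -2.53 and -1.85, as was cyclin D1, CCND1, at -1.68. The 1 gene that was higher was FOSB, at 0.0744, 0.955 and 0.707 CPM in rich and 2.52, 2.60 and 3.65 CPM in depleted medium.

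A list of 15 tested growth factor ligand and receptor genes, drawn up for the EGF family, also held FGFR1 and FGF19. Of these 15 genes 6 were higher and 3 lower, or 1 lower without depleted replicate 1. ERBB3 rose from 136, 173 and 93.2 CPM to 415, 404 and 306 CPM (1.48, SE 0.23) and EGFR from 96.4, 165 and 80.1 CPM to 199, 328 and 204 CPM (1.10, SE 0.27). Every depleted library lay above every rich one for both receptors. FGFR1 was lower at -1.53 and PDGFRA at -1.89, while PDGFRB was higher at 1.82. Among the EGF family ligands EREG was at -0.63 and HBEGF at -0.85, and both calls were lost without depleted replicate 1 (adjusted p 0.095 and 0.071, edgeR). That of EREG was also lost without rich replicate 1 (0.063) and that of HBEGF without rich replicate 2 (0.094).

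Actin and serum response factor (SRF) targets fell. Of 17 tested genes 13 were lower and 1 higher, with a median log2 fold change of -1.05. ACTB, cytoplasmic beta-actin, lost more CPM than any other named protein-coding transcript, from 4177, 4934 and 5680 CPM to 1414, 1586 and 1649 CPM (-1.67, SE 0.22). ANKRD1, a target of YAP and TEAD factors, fell from 184, 174 and 192 CPM to 15.1, 25.2 and 17.9 CPM (-3.24, SE 0.28). TAGLN, a smooth muscle actin-binding protein, spread widely in rich medium, at 154, 241 and 651 CPM, against 26.8, 34.9 and 56.0 CPM in depleted medium. Its log2 fold change of -3.15 was -2.33 without rich replicate 3, and that of ACTG2 went from -3.35 to -2.54. Only 4 of 18 YAP and TEAD targets were lower and 3 higher, so ANKRD1 and CCN1 (-1.51) stood beside AJUBA at 0.66.

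NPPB, natriuretic peptide B, had the lowest log2 fold change of the named genes. It stood at 41.6, 87.1 and 90.6 CPM in rich and 1.81, 6.53 and 3.62 CPM in depleted medium (-4.21, SE 0.43). NAV3 fell from 12.2, 20.7 and 9.69 CPM to 1.28, 0.810 and 0.703 CPM (-3.91), and BTN1A1, a butyrophilin of milk fat globules, from 35.2, 44.1 and 40.4 CPM to 2.89, 4.52 and 4.79 CPM (-3.30, SE 0.23). All 3 genes kept clear gaps between the media. MYBPH, SOSTDC1, TNC and TMEM255A lay between -3.22 and -3.08. CALHM5 had a log2 fold change of -3.01, and its call was lost without rich replicate 1 or depleted replicate 3 (adjusted p 0.056 and 0.052, edgeR). Among genes on no list with the smallest adjusted p were GAL, the neuropeptide galanin (-2.91), and CDCA7 (-2.20).

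Proliferation genes fell broadly. All 45 mitosis and spindle genes were lower, as were 20 of 21 origin licensing, 22 of 27 replication fork, 23 of 25 nucleotide synthesis, 17 of 20 DNA repair genes and 16 of 21 genes of G1 cyclins, CDKs and E2F. No gene of these lists was called higher in the main fit. Under alternatives 1 nucleotide synthesis gene was higher: in the fit blocked on replicate number, the DESeq2 test, the series-wide count table and without rich replicate 3. From the G1 cyclin, CDK and E2F list 1 gene was higher without rich replicate 1, with or without rich bafilomycin A1 replicate 3. The medians ran from -1.31 for licensing to -1.0 for the fork. Shares of this size compare with 15.4% over all genes tested. MCM6, a subunit of the replicative helicase whose promoter is printed above, went from 214, 156 and 158 CPM to 47.2, 52.6 and 47.3 CPM (-1.84, SE 0.23). NCAPG, a condensin subunit, went from 130, 90.8 and 84.7 CPM to 27.5, 36.3 and 25.2 CPM (-1.78, SE 0.22). Rich replicate 1 was the highest for both genes, and neither group came near the other.

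MCM10 (-2.55), RRM2 of ribonucleotide reductase (-2.29), CLSPN (-2.20) and UHRF1 (-2.07) had larger changes. PCNA, the sliding clamp, was at 268, 188 and 255 CPM in rich and 54.1, 66.3 and 56.3 CPM in depleted medium (-2.01), and MKI67, the proliferation marker, at 327, 406 and 206 CPM and 113, 137 and 89.6 CPM (-1.47). Of 29 replication-dependent histone genes 13 were lower, and 6 without rich replicate 3 or without depleted replicate 1. The summed level of these histones was 2526, 2633 and 6005 CPM in rich and 1936 to 2330 CPM in depleted medium, so rich replicate 3 stood alone. The CDK inhibitors CDKN1A and CDKN1B gave -0.34 (adjusted p = 0.37, edgeR) and 0.42 (adjusted p = 0.15, or 0.014 blocked on replicate number and 0.018 without rich replicate 3).

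MYC fell from 95.7, 130 and 149 CPM to 49.0, 54.4 and 60.5 CPM (-1.19, SE 0.22), and the groups did not overlap. MXD4, which competes with MYC for MAX, rose from 10.6, 10.9 and 15.2 CPM to 59.9, 44.8 and 56.4 CPM (2.13, SE 0.19). MYCL and MXD1 were higher at 1.33 and 1.04. Of 44 ribosome biogenesis genes 34 were lower and 1, NOB1, was higher (0.82), with a median log2 fold change of -0.92. LYAR (-2.03), BOP1 (-1.67) and NOLC1 (-1.55) were among them. RNA polymerase I and III genes were lower in 11 of 30 cases, led by POLR1G at -2.19, and higher in 4. The higher count was 2 without rich replicate 2 or depleted replicate 1, and 0 without depleted replicate 3. Of 11 polyamine genes 6 were lower and 3 higher: ODC1, the rate-limiting enzyme of synthesis, was at -1.48, and SMOX and SAT1, which break polyamines down, were at 1.62 and 0.80.

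**Figure D3:**
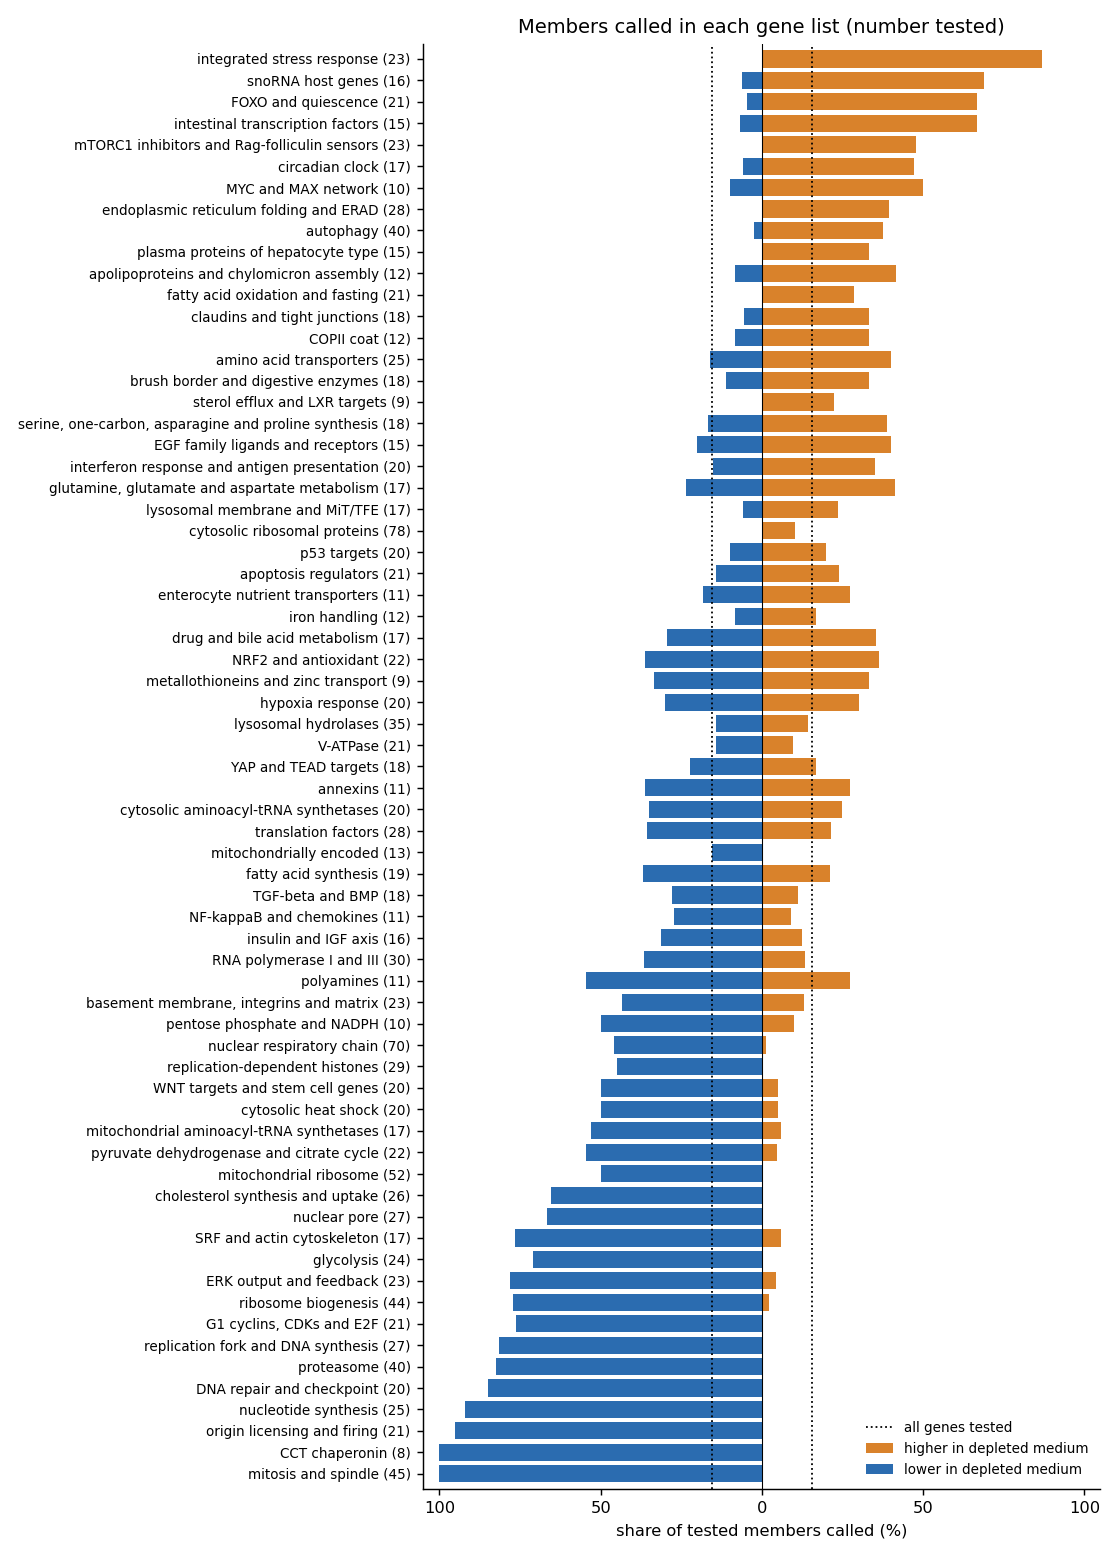
Share of the tested members of each list called higher (orange, to the right) or lower (blue, to the left) in depleted medium, with the number tested in parentheses and dotted lines at 15.5% and 15.4%, the shares over all genes tested. Mitosis (45 of 45) and CCT chaperonin (8 of 8) stand at the lower end and the integrated stress response (20 of 23) at the upper.

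Of 28 translation factor genes 6 were higher and 10 lower, with a median log2 fold change of 0.07. EEF2, elongation factor 2, gained more CPM than any other named gene, from 1444, 1766 and 1910 CPM to 3927, 3037 and 4269 CPM (1.13, SE 0.22). PABPC1 and EIF4B were higher at 0.75 and 0.79, while EIF5A and the cap-binding EIF4E were lower at -1.65 and -1.28. Many of the transcripts that encode ribosomal proteins and elongation factors begin with a 5′ terminal oligopyrimidine tract, a feature through which mTORC1 controls their translation.

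Cytosolic ribosomal protein genes were called higher in 8 of 78 cases, beside 15.5% over all genes, and none was lower. This count depended on single libraries, being 52 without rich replicate 3, 3 without rich replicate 2 and 1 without depleted replicate 3. It was 40 with the replicate number as a block. Their summed level was 23710, 19200 and 42290 CPM in rich and 38150, 31800 and 44230 CPM in depleted medium, so rich replicate 3 lay within the depleted range and the other 2 below it. RPL13A, with 283, 366 and 841 CPM against 994, 843 and 1261 CPM, had a log2 fold change of 1.06, and 1.67 without rich replicate 3. Its call was lost without any other 1 of the 6 libraries except depleted replicate 2 (adjusted p 0.059 to 0.11, edgeR).

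Host genes of small nucleolar RNAs, which carry the guides for ribosomal RNA modification in their introns, were higher in 11 of 16 cases and lower in 1, with a median log2 fold change of 1.54. GAS5, named for growth arrest, was at 38.2, 27.8 and 60.4 CPM in rich and 248, 200 and 276 CPM in depleted medium (2.52, SE 0.36). ZFAS1 went from 57.6, 51.8 and 116 CPM to 445, 339 and 441 CPM (2.44, SE 0.33). Rich replicate 3 was the highest rich library for both, as it was for small RNAs, and still lay below every depleted library. SNHG5 was at 2.88, or 3.47 without that replicate, and SNHG3 was the 1 host gene that was lower (-1.09). Reads from the small RNAs inside these genes cannot be assigned to host or guest with certainty, and their part in the result was not tested.

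**Figure D4:**
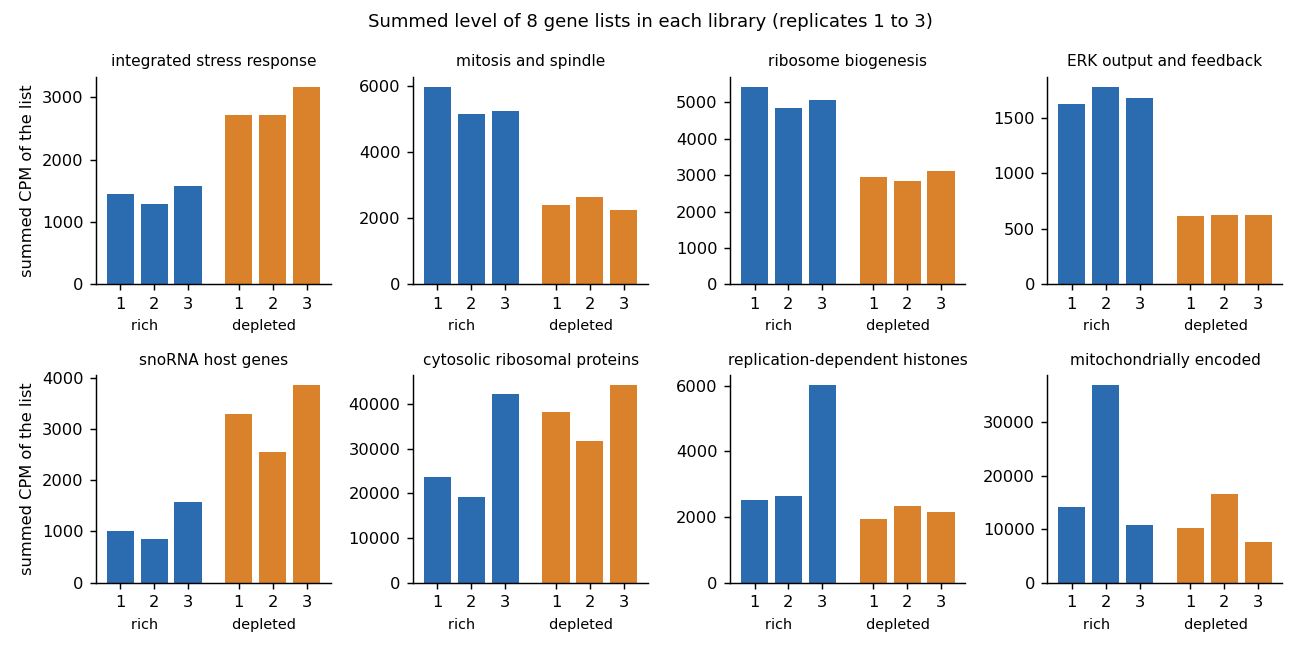
Summed CPM of the tested members of 8 gene lists in each vehicle library, replicates 1 to 3 of rich (blue) and depleted (orange) medium. The first 5 lists show no overlap between media, whereas for ribosomal proteins rich replicate 3 (42290 CPM) reaches the depleted libraries, for histones it stands alone (6005 CPM), and for mitochondrially encoded genes rich replicate 2 does (36840 CPM).

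Of 70 nuclear genes of the respiratory chain 32 were lower and 1 higher, and of 52 mitochondrial ribosome genes 26 were lower. These counts were 15 and 9 without rich replicate 3, and 16 and 9 without depleted replicate 1. CYCS, cytochrome c, was at 218, 104 and 160 CPM in rich and 51.0, 56.5 and 60.0 CPM in depleted medium (-1.52, SE 0.28). In the citrate cycle and pyruvate dehydrogenase 12 of 22 genes were lower, such as DLAT (-1.08), and IDH2 was higher (0.69). The 13 genes encoded in mitochondrial DNA summed to 14060, 36840 and 10700 CPM in rich and 10170, 16580 and 7587 CPM in depleted medium. Among them COX2 and COX3, subunits of cytochrome c oxidase, were called lower although their groups overlapped. Both calls were lost without rich replicate 2 (adjusted p 0.14 and 0.19, edgeR), as they were without depleted replicate 1 (0.085 and 0.11) or 3 (0.085 and 0.10). The sum was lower in depleted medium in each pair of same-numbered libraries. The count of genes lower was 2 with the replicate number as a block in all 12 libraries, and 11 with the block in the 6 libraries alone. It was 12 without the low-count filter, and 4, 8 and 5 without rich replicate 1, rich replicate 3 and depleted replicate 2.

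Of 26 cholesterol synthesis and uptake genes 17 were lower and none was higher. ACAT2 and EBP, enzymes of the synthesis pathway, fell by 1.54 and 1.34 on the log2 scale. SREBF2, which drives these genes, was at 0.08 (adjusted p = 0.77, edgeR). Of 19 fatty acid synthesis genes 7 were lower and 4 higher, and 4 were lower without rich replicate 2 or depleted replicate 1 or 3. Among them ELOVL6 (-1.69), ACLY (-1.18) and FASN (-1.10) were lower. ACACB and GPAM were higher at 1.5 and 1.17. Of 9 tested sterol efflux and LXR target genes 2 were higher and none was lower. The higher count was 1 without rich replicate 1 or depleted replicate 1 or 3, and 1 gene was lower in the fit blocked on replicate number. ABCA1, the cholesterol exporter, rose from 19.4, 18.1 and 10.1 CPM to 148, 124 and 98.5 CPM, far above all rich libraries (2.97, SE 0.69).

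All 8 CCT chaperonin genes and 33 of 40 proteasome genes were lower, with medians of -1.03 and -0.90. In the cytosolic heat shock list 10 of 20 were lower and 1 higher. HSP90AA1 went from 1459, 1339 and 1532 CPM to 348, 418 and 363 CPM (-1.94, SE 0.20). HSPA6, the inducible chaperone that shares its heat shock element, had 0, 20 and 14 reads in rich and 308, 377 and 387 in depleted libraries (4.66, SE 1.27, edgeR adjusted p = 0.020). Its call was lost without rich replicate 2 or 3 (adjusted p 0.052 and 0.062), and its near-identical copy HSPA7 makes the assignment of its reads uncertain.

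In the endoplasmic reticulum 11 of 28 folding and degradation genes were higher and none was lower. DNAJB9 rose from 24.0, 29.5 and 31.5 CPM to 85.6, 140 and 111 CPM (1.98, SE 0.25). HERPUD1, which helps remove misfolded proteins, rose from 107, 123 and 113 CPM to 328, 440 and 379 CPM (1.74, SE 0.17), and the sensor ERN1 was at 1.5. HYOU1 was at 1.31. HSPA5, the main chaperone there, had a log2 fold change of 0.81, and the call was lost without rich replicate 1 or 3 or depleted replicate 2 (adjusted p 0.079, 0.10 and 0.18, edgeR). Depleted replicate 2 was the highest depleted library for DNAJB9, HERPUD1, HYOU1 and HSPA5.

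Of 35 lysosomal hydrolase genes 5 were higher and 5 lower, shares no larger than the 15.5% and 15.4% over all genes tested. The higher count ran from 3 to 12 as libraries were left out and was 9 with the replicate number as a block. The lower count was 3 without rich replicate 2 or depleted replicate 1 or 3. PPT1 and CTSC were lower at -1.96 and -1.65. LAMP3, a lysosome-associated membrane protein induced by stress, was at 2.08, 3.21 and 2.33 CPM in rich and 55.0, 91.9 and 65.4 CPM in depleted medium (4.77, SE 0.71). CLN3, a lysosomal membrane protein, was higher at 1.36 and LAPTM4B lower at -1.49. TFEB, a master regulator of lysosomal genes, lay at 0.298 to 4.16 CPM in rich and 1.48 to 2.65 CPM in depleted medium, an overlap (-0.40, adjusted p = 0.62, edgeR), while its relative TFEC was at 2.62.

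Oxidant and NRF2 genes gave 8 higher and 8 lower of 22, with 5 higher when depleted replicate 3 was left out. AKR1C1 and AKR1C2, reductases of steroids and lipid aldehydes, rose from 9.08 to 15.4 and 13.9 to 16.7 CPM up to 90.2 to 102 and 104 to 130 CPM. Their log2 fold changes were 2.96 and 2.95, and since the copies are alike the split of reads between them is uncertain. PRDX1 and GCLM were lower at -1.45 and -1.21. NOX1, a colonic NADPH oxidase, went from 41.6, 62.9 and 46.3 CPM to 3.56, 10.3 and 5.33 CPM (-2.98, SE 0.35). Hypoxia response genes were also split, 6 higher and 6 lower of 20, with NDRG1 at 2.09, LOX at 2.44 and EGLN3 at -2.47.

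Intestinal transcription factors were higher in 10 of 15 cases and lower in 1, with a median log2 fold change of 0.94. HNF4A, which maintains enterocyte identity, was at 300, 311 and 346 CPM in rich and 559, 458 and 615 CPM in depleted medium (0.77, SE 0.17). CDX2 rose from 43.8, 65.7 and 103 CPM to 134, 118 and 153 CPM (0.93). Every depleted library lay above every rich one for both. KLF4 and HNF4G were at 1.59 and 1.67, and GATA6 was lower at -0.74. In bulk libraries more cells of a type and more RNA per cell cannot be told apart.

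Of 18 brush border genes 6 were higher and 2 lower. CDHR5, a cadherin that links microvilli, went from 15.3, 45 and 28.5 CPM to 132, 133 and 146 CPM (2.20, SE 0.34), and MYO1A, a microvillar motor, from 11, 15 and 10.6 CPM to 58.8, 49.5 and 54.7 CPM (2.15, SE 0.29). VIL1, villin, did not pass (-0.06, adjusted p = 0.83, edgeR), and EZR and PLS1 were lower (-0.58 and -0.91). Of 11 tested enterocyte nutrient transporter genes 3 were higher and 2 lower, with a median log2 fold change of -0.17 and a lowest value of -2.97. The highest of them was SLC23A1, the vitamin C transporter, which rose from 2.68, 5.41 and 4.30 CPM to 39.0, 37.5 and 37.1 CPM (3.16, SE 0.71). Stem cell and WNT genes were lower in 10 of 20 cases, or 6 without depleted replicate 2. LGR5, the intestinal stem cell receptor, went from 34.2, 50.7 and 31.0 CPM to 9.83, 10.8 and 11.9 CPM (-1.83, SE 0.22), and the WNT antagonist DKK1 from 1810, 1983 and 1496 CPM to 406, 673 and 433 CPM (-1.81, SE 0.24).

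Of 23 basement membrane, integrin and matrix genes 10 were lower and 3 higher, and 6 were lower without rich replicate 2 or depleted replicate 1 or 3. Of 18 claudin and tight junction genes 6 were higher and 1 lower. The higher count was 3 without rich replicate 3 or depleted replicate 1, and 2 without depleted replicate 2. With the replicate number as a block 3 were lower. LAMB3, a laminin chain of epithelial basement membrane, rose from 92.7, 171 and 116 CPM to 388, 504 and 360 CPM (1.72, SE 0.24). Replicate 2 was the highest in each medium and the groups did not overlap. ITGA2 was lower at -2.40 and ITGA3 higher at 1.15. KRT8 and KRT18, the keratin pair of simple epithelia, were lower at -1.23 and -1.48, and CEACAM6 and CLDN2 were lower at -2.51 and -2.27. Plasma proteins made by hepatocytes and by Caco-2 were higher in 5 of 15 cases, led by AHSG, fetuin A, at 32.2, 56.1 and 32.8 CPM against 355, 266 and 454 CPM (3.15, SE 0.65). None of the 15 was lower, but 2 were without rich replicate 2 or without rich replicate 3.

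**Figure D5:**
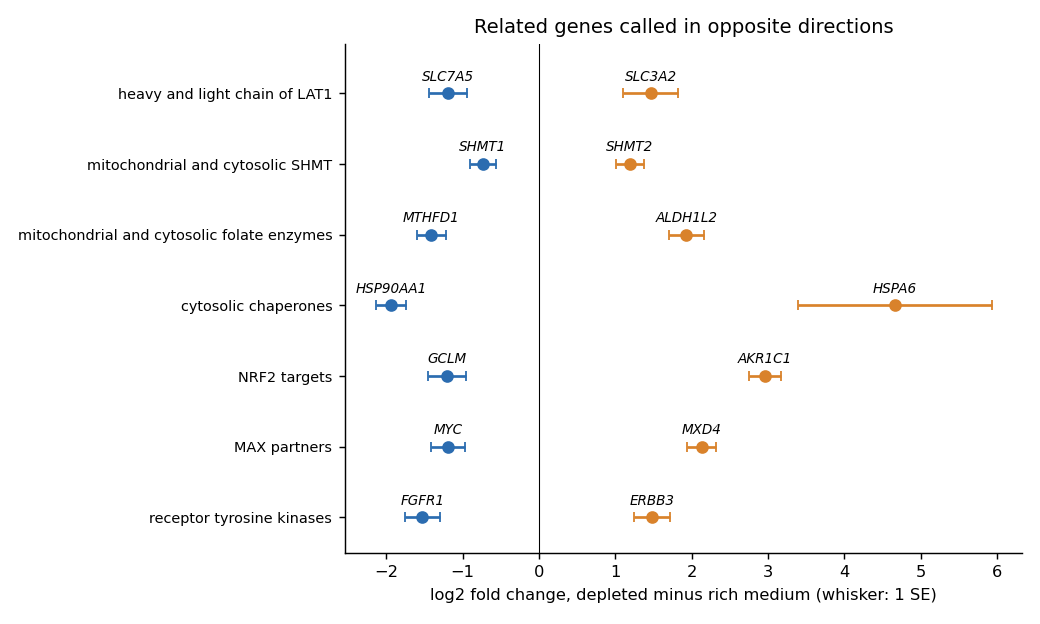
Log2 fold changes (depleted minus rich medium, points; whisker lengths of 1 SE) of 7 pairs of related genes, chosen after their values were seen because the 2 genes were called in opposite directions. SLC3A2 (1.46) and SLC7A5 (-1.19), SHMT2 (1.19) and SHMT1 (-0.74), and MXD4 (2.13) and MYC (-1.19) are among them.

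Markers of other cell types were present in part. The 6 tested fibroblast markers summed to 170 to 340 CPM in rich and 87.0 to 140 CPM in depleted medium, of which PDGFRA made up 137 to 297 and 47.7 to 83.8 CPM, and 2 of the 6 were lower and 1 higher. The fibroblast marker DCN had 20, 0 and 0 reads in the rich libraries and 2, 0 and 0 in the depleted ones. Leukocyte and endothelial markers that were tested summed to 20.5 to 27.2 CPM in rich and 13.2 to 17.4 CPM in depleted medium, with CD14 and CDH5 called lower. CD14 had 76 to 553 reads a library and CD68 23 to 145, while PTPRC had 0 reads in rich medium and 1 in depleted medium. The 6 tested goblet cell markers summed to 138 to 185 CPM in rich and 145 to 229 CPM in depleted medium, and none was called. AGR2 made up most of their reads, with 1796 to 7829 a library, TFF3 had 18 to 235 and ZG16 42 to 200. The goblet cell factor ATOH1 had 0 reads in all 6 libraries. The hormones PYY and GCG and the Paneth cell defensins DEFA5 and DEFA6 had 0 reads in all 6 libraries. Only 2 enteroendocrine and Paneth cell markers were tested, LYZ with 72 to 230 reads a library and CHGB with 0 to 27. Neither was called in the main fit, though 1 was lower under many of the alternatives. Among these were the replicate number as a block, DESeq2 size factors and test, no low-count filter, the series-wide count table and thinned reads.

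The depletion response of the 24 genes with the largest changes was also measured under 100 nM bafilomycin A1, which blocks the vacuolar ATPase, in 6 separate libraries of the series. All 24 kept their sign and 18 were called there. Those not called were ACTG2, CALHM5, HSPA6, NIBAN1, NUPR1 and STUM, the last at only 0.27 (SE 0.49, adjusted p = 0.74, edgeR). The response under bafilomycin A1 and its difference from that under vehicle were read only for these 24 genes. No share over all genes therefore stands beside the counts of calls. DUSP6 gave -3.22 under bafilomycin A1 beside -3.64 under vehicle, BTN1A1 -3.07 beside -3.30, and ANKRD1 -3.19 beside -3.24. INHBE gave 3.71 beside 4.34, with a mean of 14.6 CPM in rich and 190 CPM in depleted medium under bafilomycin A1. The test of the difference between both responses passed for 5 of the 24, all higher in depleted medium. Of these 5 STUM had the largest difference (-3.25, SE 0.74). The 24 were chosen for their vehicle response, which this difference subtracts, so the choice favours a smaller response under bafilomycin A1. The third rich library with bafilomycin A1 was unlike its group, and without it STUM alone of these 5 passed. STUM did not pass without replicate 2 or 3 of the depleted bafilomycin A1 libraries (adjusted p 0.053 and 0.059, edgeR).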

How the data were processed

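Total RNA was depleted of ribosomal RNA and made into stranded libraries, per the labels' protocols. The submitters' processing notes name DRAGEN and GRCh38; annotation and strand setting were not given in the sources used here. Reads of overlapping, antisense and near-identical genes are therefore uncertain. The deposited table of each sample gives the authors' estimated count and TPM value per gene, per the file headers. The estimated counts (5.08% not whole) were rounded. The deposited series-wide table of whole-number counts (13518 genes) served as an alternative.

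Genes were filtered with filterByExpr (minimum count 10, minimum total 15), scaled by TMM factors and tested in 1 edgeR 4.0.16 quasi-likelihood fit (R 4.3.3) of all 12 libraries, with 4 groups and 8 residual degrees of freedom, so the spread is shared with the bafilomycin A1 libraries. Calls are at a Benjamini-Hochberg adjusted p under 0.05, and CPM values are TMM-scaled. On simulated counts (17456 genes, this comparison) 100 genes were changed 2-fold and 100 changed 4-fold. The test found 48% and 74% of them, and 3.17% of its calls were false. The share changed was far below the 30.9% of genes called in the data. Because the adjusted p depends on that share, these rates do not describe the data. Same-numbered libraries of the media deviated together (r = 0.156, 0.401 and 0.454). The main fit held no replicate term, so the reported calls, SEs and adjusted p-values do not use this pairing. A fit with the replicate number as a block was run as an alternative. Within each group no library was a copy of another, and pairs across groups were not put to this check.

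Genes were named by rule: the 12 called genes that rose most and the 12 that fell most, without overlap and with at least 5 CPM in the higher group; the 8 largest gains and losses of CPM; up to 3 called members in each direction of each list with at least 1 CPM; a panel; and the 10 smallest adjusted p on no list. Clone, locus, pseudogene and small RNA names were left out. Gene lists, members and tests were chosen with earlier results of these data known. Coordinates and promoters are from RefSeq (GRCh38.p14). Alternatives were DESeq2 1.42.0 (size factors and test), no filter, the 6 libraries alone, the replicate block, thinned reads, a test against a 1.5-fold change, tables without mitochondrial, ribosomal or small RNA genes, and single libraries left out. Some members are not reported here. The fit without both libraries that stood apart (rich vehicle replicate 1 and rich bafilomycin A1 replicate 3), and the leave-out fits of the interaction, were added after seeing the data.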

Additional observations from a re-analysis of the deposited data

Results flagged for a closer look

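For 5 genes that rose in depleted medium the response under bafilomycin A1 was smaller than that under vehicle, by the interaction term of the edgeR fit. They come from the 24 genes chosen for the largest changes under vehicle, and the interaction subtracts that same vehicle value. The choice itself favours a smaller response under bafilomycin A1, so the test cannot separate a drug effect from the choice of genes. The difference, as the log2 response under bafilomycin A1 minus that under vehicle, was -3.25 for STUM (adjusted p = 0.0198), -2.06 for LRRC31 (0.0498), -2.03 for NKX1-2 (0.0499), -1.82 for MAF (0.0278) and -1.81 for SLC38A3 (0.0461). In rich medium with bafilomycin A1 these genes had means of 2.14, 2.39, 3.07, 9.40 and 26.6 CPM. Without rich bafilomycin A1 replicate 3 the differences were -2.24, -1.78, -1.42, -1.45 and -1.14, and only that of STUM passed (adjusted p = 0.041, the others 0.065 to 0.12). That of SLC38A3 did not pass in the fit blocked on replicate number (-1.79, adjusted p = 0.10). Leaving out other single libraries also ended calls: that of STUM without depleted bafilomycin A1 replicate 2 or 3, and each of the other 4 without several libraries. All 5 kept their sign when any 1 of the 12 libraries was left out. Whether the library that stood apart set these differences was not tested beyond leaving it out.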

How the results depend on the processing

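The count of genes higher in depleted medium was 2802, and it was 1820 when only the 6 libraries compared were fitted and 1019 with a minimum fold of 1.5. The count of genes lower was 2775, and 871 with the minimum fold. As single libraries of the comparison were left out, the counts ran from 1916 to 3105 higher and from 1832 to 2970 lower, the lowest in both directions without depleted replicate 1. With the replicate number as a block 3345 genes were higher and 3159 lower, and 2813 and 2832 with the block in the 6 libraries alone. Among named genes the block brought in ATF4, CDKN1B and GLUL and ended the call of FGA (log2 fold change 1.36, adjusted p = 0.054). In the 6 libraries alone many named genes lost their call. Among them were SLC2A3, GAPDH, HSPA5, RPL13A, COX2, COX3 and EPCAM (adjusted p 0.054 to 0.12, edgeR). The series-wide count table brought in GLUL (adjusted p = 0.044, edgeR). Under the other alternatives both counts were within 1.5 times the main ones, and thinning to the depth of the shallowest library gave 2158 and 2351. Without both libraries that stood apart they were 2930 and 3008. No named gene called in the main fit reversed direction. Over named genes, 364 recomputed values lost the call and 13 gained it, against 5941 that kept their side of the threshold. Of the recomputed list counts 350 moved by over 1.5 times and 2350 did not. The shallow rich replicate 1 limits the genes of low level: 630 genes called higher had means under 1 CPM in rich medium.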

Other observations

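The circadian clock list gave 8 genes higher and 1 lower of 17. RORA rose from 6.25, 3.82 and 3.38 CPM to 13.4, 13.7 and 12.1 CPM (log2 fold change 1.57) and NFIL3, a repressor of clock output, from 14, 7.53 and 10.6 CPM to 27.3, 23.0 and 31.0 CPM (1.35), while CRY1, a core repressor, was lower at -0.68. The groups of these 3 genes did not overlap. The nuclear pore list gave 18 of 27 genes lower and none higher, with NUP155 at -1.31 and NUP205 at -1.30. LIN28A, an oncofetal RNA-binding protein, was at 48.7, 20.8 and 27.8 CPM in rich and 8.76, 7.23 and 5.79 CPM in depleted medium (-2.15). FGF19, an ileal hormone that responds to bile acids, was at 0 to 0.157 CPM in rich and 1.02 to 1.62 CPM in depleted medium. MVP, the major vault protein, rose from 29.8, 36.7 and 33.5 CPM to 126, 106 and 120 CPM (1.81), and TCP11L2 from 6.62, 5.04 and 3.93 CPM to 46.4, 35.6 and 38.9 CPM (2.98), with no overlap in either gene.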
